A study of Brassica rapa subsp. pekinensis with 6 samples.

Results

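The miRNAs described here belong to the less conserved families miR401 to miR999, without miR403, miR408, miR824, miR827 and miR857. They were taken by the family number in the names of a small RNA table of germinated Chinese cabbage seeds, each mature sequence once with its rows added. A total of 18 of 889 mature sequences qualified, on 26 of 1159 rows, and they fell into 7 families (miR472, miR482, miR774, miR838, miR845, miR858 and miR860). The vernalized (Ver) libraries came from seeds that, once germinated, spent 25 days in a dark refrigerator at 4 °C. The non-vernalized (Nor) libraries came from germinated seeds kept for about 48 h at room temperature, also in the dark per the methods of the study. Both groups were seeds of 'FT', a single doubled haploid line of Chinese cabbage (Brassica rapa subsp. pekinensis), and there were 3 libraries in each group. Each replicate was a pool of seeds, per the methods of the study. Temperature and duration differed together and cannot be told apart, and neither can fewer cells of a type and less RNA per cell.

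A plant miRNA is cut by DICER-LIKE 1 from a hairpin transcript and guides an ARGONAUTE protein to RNAs with a complementary site, which are then cut or less translated. Many families with high numbers are found only in some plant lineages, and their hairpins are often weakly expressed. Of the families here, miR858 is known to act on MYB transcription factor genes, among them activators of flavonol synthesis in Arabidopsis. The related miR472 and miR482 act on resistance genes of the NBS-LRR class, which encode immune receptors, and their 22-nt forms trigger secondary small RNAs from those transcripts. In Arabidopsis pollen, miR845 matches the primer binding site of LTR retrotransposons. The Arabidopsis MIR838 hairpin lies within an intron of the DICER-LIKE 1 gene, and Arabidopsis miR774 has been tied to an F-box gene.

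The 10 most abundant members, which include all members called below, were the following mature sequences, written as DNA letters. Capitals mark bases 2 to 8, called the seed here. The sequences are shown because 3 of the miR858 sequences share a seed and differ at few other bases.
cas-miR858: tTTCGTTGtctgttcgacctt
ath-miR858a_1ss9TA: tTTCGTTGactgttcgacctt
ath-miR858a_2ss18CT19CT: tTTCGTTGtctgttcgatttt
aly-MIR858-p5_1ss9CT: aGATGGAAtcagatcgggact
cas-MIR472-p3_1ss14GT: tTTTGCCTactcctcccatacc
ghr-MIR482b-p5/p3: aAGAAGAAggctgctttg
gra-MIR482d-p3: tTTCTCTTctctctttttt
ath-miR845a: cGGCTCTGataccaattgatg
bra-miR860-5p: aTGTAGTCcaatctattgaag
bra-miR860-3p: tCAATACAttggactacatat

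In these names the prefix is the species of the miRBase match, 5p and 3p are arms that miRBase holds, p5 and p3 are arms that it does not hold, and ss gives substitutions against the known sequence (1ss9TA is T to A at position 9). A total of 12 of 18 members carried substitutions in every name. There were 4 members identical to a miRBase sequence, 4 that differed from one and 10 on an arm new to miRBase. A Brassicaceae prefix was found for 15 members and a prefix of other plants for 3. The seed TTCGTTG was shared by 4 members, all of them in the miR858 family and all of those in the table. Relative to cas-miR858, with positions counted from 1 at the 5′ end, ath-miR858a_1ss9TA had T9A and ath-miR858a_2ss18CT19CT had C18T and C19T. These changes lay outside the seed, and their effect on target pairing was not tested. Of the 18 members, 11 (61.1%) began with T, against 307 of 889 sequences of the whole table (34.5%). Most of these 11 were miR858 sequences, among them the 4 that share the seed TTCGTTG, so they are not separate cases. The members were 18 to 24 nt long, with 10 of them at 21 nt and 1, cas-MIR472-p3_1ss14GT, at 22 nt.

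Hairpins of the called members are shown from the deposited precursors (5′ to 3′ on the strand given, with coordinates as the table lists them). The table names no genome build, and the study names B. rapa v3.0 for its mRNA reads. Capitals mark the window that best matches the mature sequence, and a lower-case base inside that window differs from it.
cas-MIR472-p3, A08:20907584-20907727, plus: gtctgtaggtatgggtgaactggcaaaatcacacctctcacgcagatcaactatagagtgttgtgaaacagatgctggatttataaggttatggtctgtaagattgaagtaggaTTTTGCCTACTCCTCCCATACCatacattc
cas-MIR472-p3, A09:42547847-42548011, plus: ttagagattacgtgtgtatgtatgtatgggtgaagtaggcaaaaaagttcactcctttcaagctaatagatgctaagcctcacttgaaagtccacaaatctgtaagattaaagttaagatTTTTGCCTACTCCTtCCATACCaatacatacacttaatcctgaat
cas-miR858 (listed), A07:25146773-25146860, plus: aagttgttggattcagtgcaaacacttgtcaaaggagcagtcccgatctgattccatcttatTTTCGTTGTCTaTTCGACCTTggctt
cas-miR858 (exact), A07:25147667-25147743, minus: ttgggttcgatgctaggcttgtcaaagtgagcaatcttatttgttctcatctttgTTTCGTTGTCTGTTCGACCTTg
aly-MIR858-p5, A07:25146800-25146874, minus: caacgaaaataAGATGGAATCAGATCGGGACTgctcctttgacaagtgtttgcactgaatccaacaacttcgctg
bra-miR860-5p and -3p, A06:22646927-22647041, plus: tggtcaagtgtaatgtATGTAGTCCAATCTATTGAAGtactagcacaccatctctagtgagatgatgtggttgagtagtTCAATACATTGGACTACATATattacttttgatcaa

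The members mapped to 24 listed precursor positions of 34 to 165 bases. Their folding energies, as the authors listed them, ranged between -73.8 kcal/mol (MIR838, A10) and -2.1 kcal/mol (a miR858 row on A02). On 15 of 26 rows the precursor held the mature sequence exactly, and on each of the other 11 rows it differed by 1 base. There were 6 members that no precursor listed for them held exactly. For cas-miR858, the most abundant member, the listed precursor had G12A relative to the mature sequence. The exact cas-miR858 sequence was held by 3 precursors listed for other miR858 names, at A07:22238612-22238663 (minus), A07:25147667-25147743 (minus) and A02:11648037-11648078 (minus). Each of these 3 lay close to a second listed miR858 hairpin, with 792 to 849 bases between them. The gene context of these positions was not analysed here.

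The Ver libraries held 589061 to 771529 miRNA reads over the whole table, and the Nor libraries held 749852 to 968483. Members took 0.351% to 0.372% of them in Ver and 0.319% to 0.346% in Nor. A mature sequence of 18 nt ending in CCA, as tRNA 3′ ends do, took 1.14% to 1.45% of the reads in Ver and 5.15% to 7.14% in Nor. None of the members (0 of 18) was such a sequence, and with these reads left out the same 4 members were called. A listed value of 0 is read here as a limit of 5 reads, which is an assumption, since the rule of the authors is not stated. Of 3444 nonzero sums, 295 were exactly 5 reads, but 145 were under 5. The bounds below rest on this assumption. Levels below are RPM (reads per 1000000, after the library totals were scaled by TMM factors), as mean ± SD over n = 3 libraries per group. No miRNA list was used here to check the tissue label.

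A total of 17 of 18 members had reads. There were 11 with reads in both groups, 4 in Ver only and 2 in Nor only, and 8 had reads in all 6 libraries. The test was the quasi-likelihood test of edgeR over all sequences with Benjamini-Hochberg adjustment, and an adjusted p under 0.05 was called. In the whole table, 61.1% of 406 tested sequences were called, 28.3% higher and 32.8% lower in Ver. Of the 10 members that passed the filter on low counts, 4 were called, 2 higher (cas-miR858 and aly-MIR858-p5_1ss9CT) and 2 lower (cas-MIR472-p3_1ss14GT and bra-miR860-5p) in Ver. Of these, aly-MIR858-p5_1ss9CT passed the filter through the Ver libraries alone, since it was listed at 0 in Nor, so its call is no separate support for the count. The groups did not overlap in 7 of these 10, against 71.4% over all tested sequences. Among the 7 were aly-MIR858-p5_1ss9CT, ath-miR858a_2ss18CT19CT and ghr-MIR482b-p5/p3, each with a listed 0 in its lower group. These passed the filter mainly through their higher group, so their lack of overlap is no separate support for this count. The median log2 fold change was -0.62 over the 10 members and -0.19 over all 406 sequences. This median over all sequences was -0.21 with library totals only, -0.09 with DESeq2 size factors and -0.05 with the factors of the authors, and a member's log2 fold change is read against it.

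**Figure D1:**
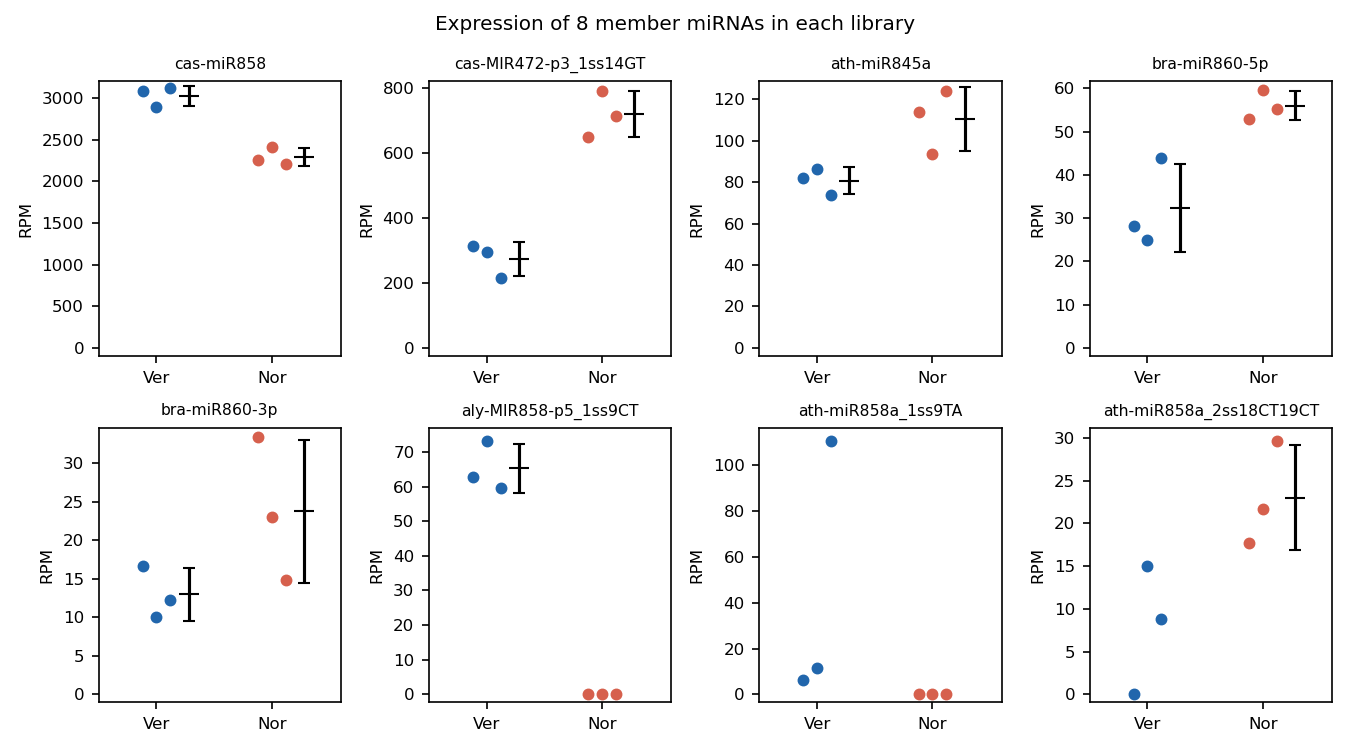
Level in RPM (y axis, linear) of 8 member miRNAs in each of the 3 Ver and 3 Nor libraries (points), with mean and SD beside them where no library was listed at 0 and the SD was below the mean. The Ver points lay above the Nor points for cas-miR858, aly-MIR858-p5_1ss9CT and ath-miR858a_1ss9TA, and the reverse held for cas-MIR472-p3_1ss14GT, ath-miR845a, bra-miR860-5p and ath-miR858a_2ss18CT19CT.

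**Figure D2:**
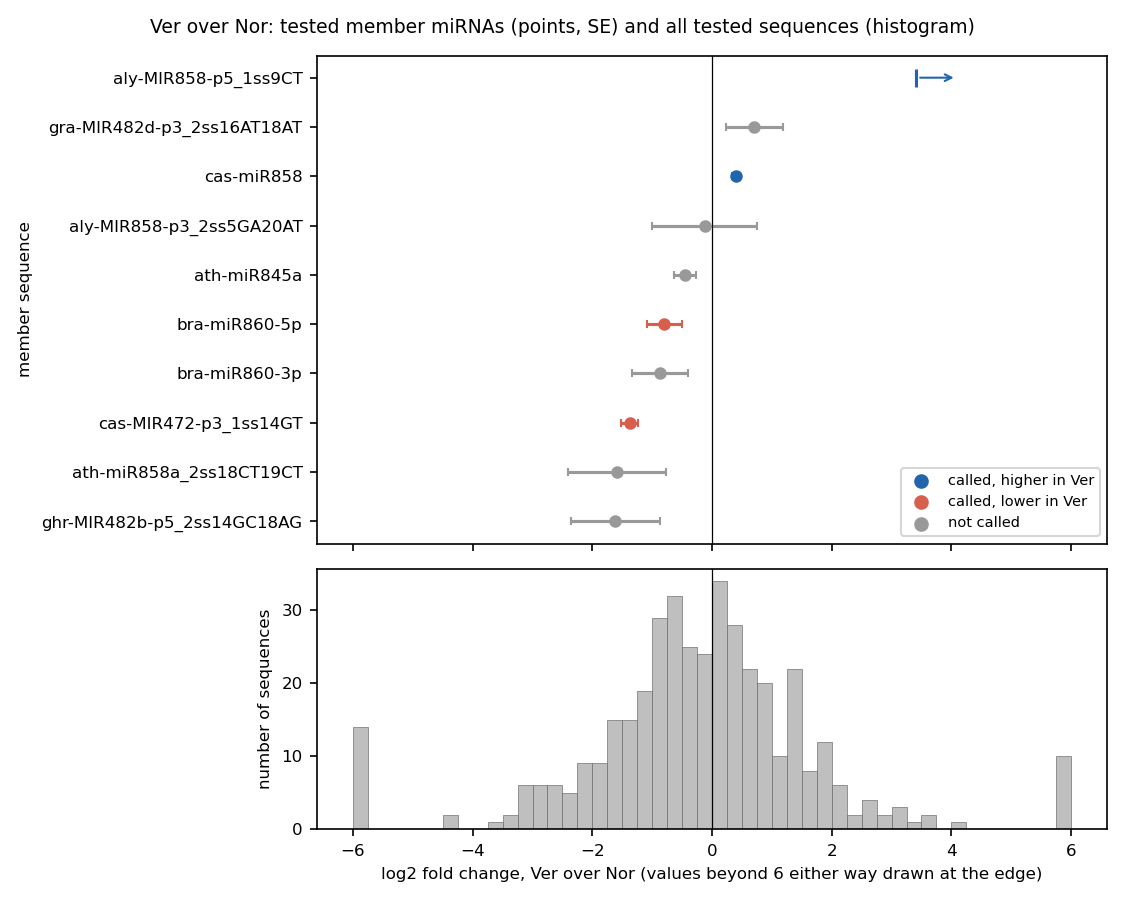
Log2 fold change, Ver over Nor, of the 10 tested members with SE (upper panel, coloured where called) and the number of all 406 tested sequences per bin of log2 fold change (lower panel). The arrow gives the lower bound for aly-MIR858-p5_1ss9CT, which was listed at 0 in all Nor libraries. The called members sat on both sides of 0.

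The miR858 family held most of the member reads and was higher in Ver. The main form, cas-miR858, was 1.32-fold higher in Ver than in Nor. Another miR858 sequence, aly-MIR858-p5_1ss9CT, was listed with reads in Ver libraries only. The precursor that holds it exactly lay opposite the plus-strand precursor listed for cas-miR858, which does not hold cas-miR858 exactly. The precursors that hold cas-miR858 exactly were on the minus strand, as was that of aly-MIR858-p5_1ss9CT. Of the families known to act on MYB or SPL transcription factor genes (miR529, miR535, miR828 and miR858), miR858 was the only 1 of 4 in the table. Of its 8 sequences, placed here by the family number in their names only, 4 were tested, with 2 higher and 0 lower in Ver. The tested aly-MIR858-p5_1ss9CT and aly-MIR858-p3_2ss5GA20AT do not have the seed of cas-miR858, and whether they act on MYB genes was not tested. Over all 406 tested sequences, 28.3% were called higher and 32.8% lower in Ver. The call of aly-MIR858-p5_1ss9CT is no separate support for this count, since it passed the filter through the Ver libraries alone. No target was measured in these libraries.

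cas-miR858 had 2403, 1736 and 1778 reads in Ver 1 to 3, against 2298, 1778 and 1641 reads in Nor 1 to 3. These were 3082, 2889 and 3119 RPM in Ver and 2256, 2413 and 2213 RPM in Nor. Every Ver library lay above every Nor library. The means were 3030 ± 123 RPM in Ver and 2294 ± 105 RPM in Nor, a log2 fold change of 0.40 (SE 0.072), and the adjusted p by edgeR was 0.00104. cas-miR858 ranked 43 of 872 sequences by mean RPM over the 6 libraries.

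Within the member reads, cas-miR858 took 83.8%, 82.8% and 84.6% in Ver 1 to 3, against 70.6%, 68.3% and 68.7% in Nor 1 to 3. This share does not depend on the scaling of the libraries. The shares did not overlap between the groups, with a mean of 83.7 ± 0.882% in Ver and 69.2 ± 1.25% in Nor. The share of cas-MIR472-p3_1ss14GT was the other way round, with 7.61 ± 1.53% in Ver and 21.6 ± 1.13% in Nor. Both shares are parts of the same total, so a fall of this share raises that of cas-miR858, and they are not separate results.

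**Figure D3:**
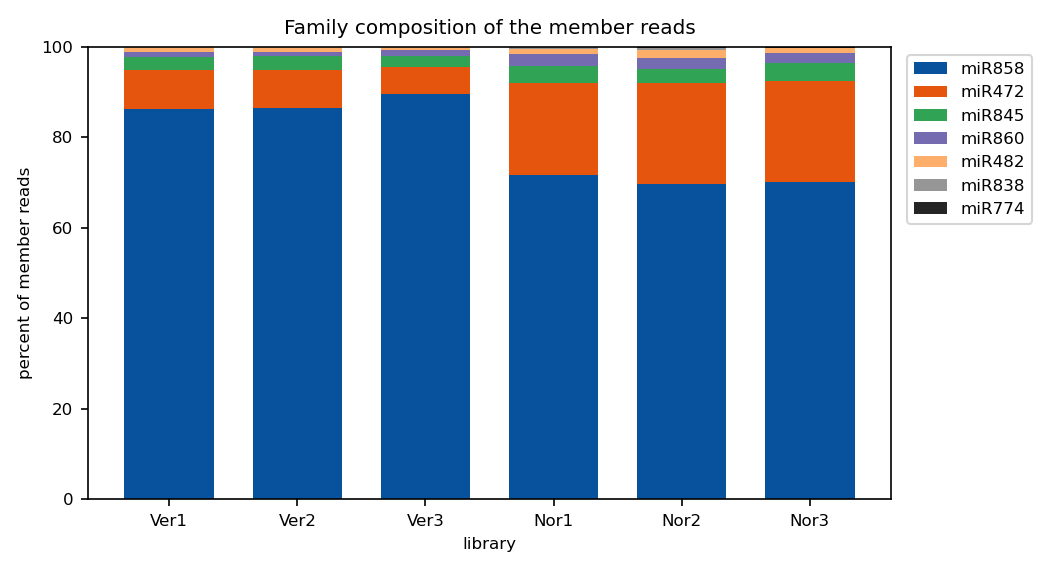
Percent of member reads (y axis) that belonged to each of the 7 families in the 3 Ver and the 3 Nor libraries (bars). The miR858 family took 86.3%, 86.5% and 89.7% in Ver 1 to 3, against 71.6%, 69.7% and 70.2% in Nor 1 to 3.

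aly-MIR858-p5_1ss9CT had 49, 44 and 34 reads in Ver 1 to 3 and was listed at 0 in all 3 Nor libraries. This was 62.8, 73.2 and 59.6 RPM in Ver, with a mean of 65.2 ± 7.10 RPM. The groups did not overlap. Relative to 5 reads in each Nor library, it was at least 10.6-fold higher in Ver. Its adjusted p by edgeR was 2.8e-05, but it entered the test only through Ver, and it was not tested where at least 10 counts were required in every library. Its sequence has another seed than cas-miR858, and it lies exactly in the minus-strand precursor A07:25146800-25146874. The other precursor listed for it, A07:22237732-22237765 (minus), had T9C. The exact precursor overlaps the plus-strand precursor listed for cas-miR858, which does not hold cas-miR858 exactly. A precursor that does, A07:25147667-25147743, lay on the minus strand, with 792 bases between it and A07:25146800-25146874. In Ver, 1.88% to 2.47% of the reads of both sequences together were aly-MIR858-p5_1ss9CT, while in Nor the 0 allowed up to 0.218%, 0.281% and 0.305%.

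The other forms of miR858 with the same seed were not called. ath-miR858a_1ss9TA, with T9A, had 5, 7 and 63 reads in Ver 1 to 3 and was listed at 0 in the 3 Nor libraries. Its level rested on Ver 3 (110.5 RPM), since Ver 1 and Ver 2 had 6.41 and 11.7 RPM. It did not pass the filter on low counts. The bound against 5 reads per Nor library was at least 6.97-fold higher in Ver, and 1.47-fold without Ver 3. As a share of its own and the cas-miR858 reads it made up 0.208%, 0.402% and 3.42% in Ver 1 to 3 (Ver 3 with a Wilson 95% interval of 2.68% to 4.35%, for counting error only). No precursor listed for it held this sequence, and both had A9T.

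ath-miR858a_2ss18CT19CT had 0, 9 and 5 reads in Ver 1 to 3, against 18, 16 and 22 reads in Nor 1 to 3. The levels were 0, 15.0 and 8.77 RPM in Ver and 17.7, 21.7 and 29.7 RPM in Nor. The groups did not overlap, but the adjusted p by edgeR was 0.116, above the threshold, for a log2 fold change of -1.59 (SE 0.814). That fold change was -0.88 without Ver 1 and -2.41 without Ver 2, uncalled in both. The remaining miR858 sequences had at most 13 reads in a library, and 1 of them (ath-miR858a_R-2_2ss18CT19CT) was at 0 throughout. Among them was aly-MIR858-p3_2ss5GA20AT, named outside the rule, with 13, 8 and 0 reads in Ver and 10, 13 and 5 reads in Nor. A run of 16 bases in it was the reverse complement of cas-miR858, and its groups overlapped.

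**Figure D4:**
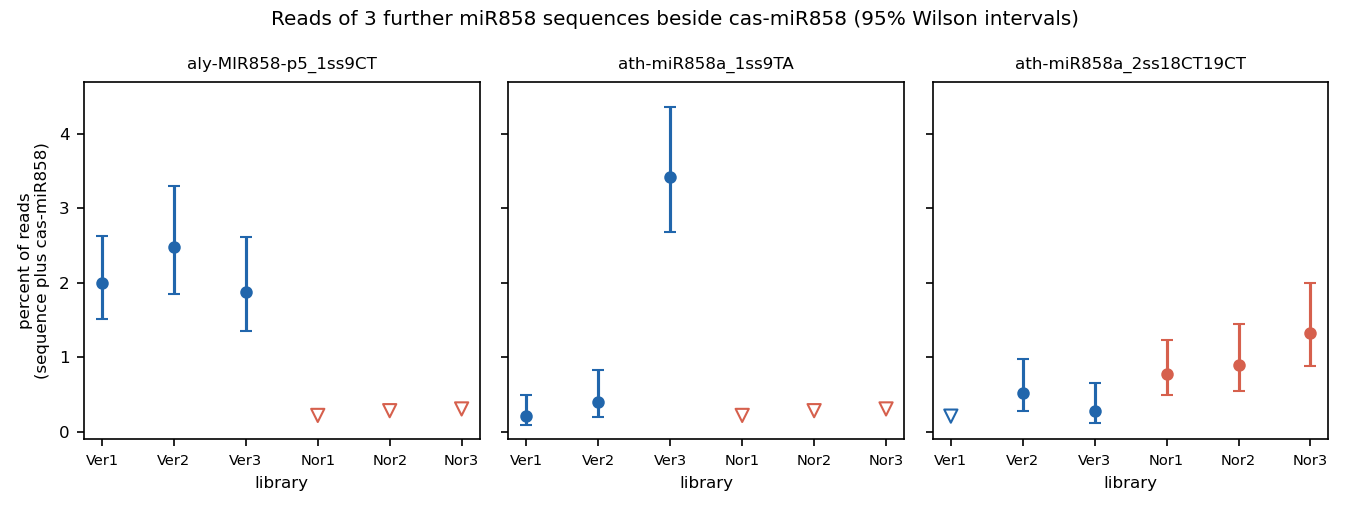
Reads of 3 further miR858 sequences as a percent of their own and the cas-miR858 reads (y axis) in the Ver and Nor libraries, with 95% Wilson intervals. Open triangles mark the limit that a listed 0 allows, which was 0.218% to 0.305% in Nor for the left and middle panels. The high point of ath-miR858a_1ss9TA was Ver 3, at 3.42%.

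Summed over its 8 sequences, the miR858 family had 3175, 3018 and 3306 RPM in Ver, against 2287, 2460 and 2262 RPM in Nor. Ver was above Nor in every library. The means were 3166 ± 144 RPM in Ver and 2337 ± 108 RPM in Nor, and the log2 fold change of 0.47 (SE 0.095) had an adjusted p of 0.00149 by edgeR on family sums. Since 97.0% of the reads were cas-miR858, the family sum is nearly that of this sequence. Over all 189 families and predicted sequences tested, 65.1% were called, 28.6% higher and 36.5% lower in Ver. Of the 5 member families tested, 3 were called (miR858 higher, miR472 and miR860 lower in Ver). The groups did not overlap in 4 of these 5, against 74.1% over all 189.

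The families whose known targets are immune receptor genes were represented by miR472 and miR482, and miR825 of the same list had no sequence under its number in the table. All 3 sequences, placed in this list by the family number in their names only, were tested, with 0 higher and 1 lower in Ver. Over all 406 tested sequences, 28.3% were called higher and 32.8% lower. The sequence that fell, cas-MIR472-p3_1ss14GT, had 245, 177 and 123 reads in Ver 1 to 3, against 662, 583 and 530 reads in Nor 1 to 3.

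The level of cas-MIR472-p3_1ss14GT was 314, 295 and 216 RPM in Ver 1 to 3 and 650, 791 and 715 RPM in Nor 1 to 3. The highest Ver library lay below the lowest Nor library. The means were 275 ± 52.1 RPM in Ver and 719 ± 70.7 RPM in Nor, with a log2 fold change of -1.38 (SE 0.147), a fold of 0.385 and an adjusted p by edgeR of 3.7e-05. It was the only member of 22 nt, and of the 52 sequences of that length tested in the whole table, 13 were higher and 16 lower in Ver. It ranked 89 of 872 by mean level. The hairpin on A08 held it exactly, while that on A09 had C15T, and the rows of both hairpins carried the same values.

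The miR482 sequences were rare, short and named after cotton species. Both carried substitutions, lay on arms that miRBase does not hold and were shorter than the 22-nt forms. The precursor of gra-MIR482d-p3 was also listed under the name ppe-MIR169i-p3. Whether they act on immune receptor genes was not tested. ghr-MIR482b-p5/p3, of 18 nt, had 17, 5 and 0 reads in Ver 1 to 3, against 30, 34 and 18 reads in Nor 1 to 3. Its groups did not overlap, and the log2 fold change of -1.62 (SE 0.745) had an adjusted p of 0.0844 by edgeR. It was -2.87 without Ver 1 (adjusted p 0.0227 by edgeR) and -1.02 without Ver 3 (0.132). gra-MIR482d-p3, of 19 nt, had 13, 16 and 12 reads in Ver and 11, 14 and 7 reads in Nor, with groups that overlapped in reads. Its log2 fold change was 0.71 (SE 0.478) with an adjusted p of 0.214 by edgeR.

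The miR482 family sum was 38.5, 35.0 and 21.1 RPM in Ver, against 40.3, 65.1 and 33.7 RPM in Nor. The groups overlapped, and the log2 fold change of -0.51 had an adjusted p of 0.253 by edgeR. The miR482 pair shared no seed with each other or with miR472.

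Of the families tied to DNA or histone methylation, silencing or retrotransposons in Arabidopsis (miR773, miR778, miR823, miR838 and miR845), 2 of 5 were in the table, with 4 sequences. Only ath-miR845a passed the filter on low counts, and it did not pass the test. It had 64, 52 and 42 reads in Ver 1 to 3, against 116, 69 and 92 reads in Nor 1 to 3. The levels were 82.1, 86.5 and 73.7 RPM in Ver and 114, 93.6 and 124 RPM in Nor, which did not overlap. The means were 80.8 ± 6.53 RPM in Ver and 110.5 ± 15.5 RPM in Nor, a log2 fold change of -0.45 (SE 0.185) with an adjusted p of 0.0581 by edgeR. It was called in 1 of 15 alternatives, with at least 10 counts required in every library (adjusted p by edgeR 0.0418). In the other 14 it was uncalled, with an adjusted p of up to 0.290 (DESeq2 Wald test).

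ath-miR845a shared the 16 bases ggctctgataccaatt with vvi-MIR845c-p3, a 24-nt member, and with 2 sequences named aof-MIR5139a that are no members. These 4 were all the sequences of the table that held this run, which is shown because it links names of different families. The longer sequence, with its seed in capitals, was as follows.
vvi-MIR845c-p3: aACCTGAGgctctgataccaattc

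vvi-MIR845c-p3_2ss4AC24GC had 7, 6 and 8 reads in Ver 1 to 3, against 5, 11 and 7 reads in Nor 1 to 3, and the groups overlapped. cas-MIR845-p5 had 11, 5 and 0 reads in Ver and 0 in all Nor libraries, which lies near the limit of 5 reads. The miR845 sum was 105, 105 and 87.7 RPM in Ver and 119, 109 and 133 RPM in Nor, without overlap. Its log2 fold change of -0.23 (SE 0.159) had an adjusted p of 0.225 by edgeR, and the sign turned to 0.0048 with DESeq2 size factors.

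aly-MIR838-p3, from the strongest hairpin of the members, was listed at 0 in Ver 1 to 3, against 11, 10 and 0 reads in Nor 1 to 3. The same precursor on A10 also gave a predicted sequence of the other arm, with 13, 0 and 5 reads in Ver and 16, 13 and 10 reads in Nor. The aly-MIR774a sequence had 0 in all Ver libraries and 0, 8 and 5 reads in Nor 1 to 3. Of the families known in Arabidopsis for lectin, DC1-domain, F-box, transporter or kinase targets, miR774 was the only 1 of 8 in the table. Neither miR838 nor miR774 passed the filter on low counts, and without a filter their adjusted p by edgeR was 0.134 and 0.180, above the threshold.

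The miR860 family was lower in Ver, with both arms of its hairpin detected in all 6 libraries. bra-miR860-5p had 22, 15 and 25 reads in Ver 1 to 3, against 54, 44 and 41 reads in Nor 1 to 3. The levels were 28.2, 25.0 and 43.9 RPM in Ver and 53.0, 59.7 and 55.3 RPM in Nor. Ver 3 was the nearest to the Nor libraries, and the groups did not overlap. The means were 32.3 ± 10.1 RPM in Ver and 56.0 ± 3.4 RPM in Nor, a log2 fold change of -0.80 (SE 0.287) with an adjusted p of 0.0372 by edgeR. This call was lost in 10 of 15 alternatives, with an adjusted p of up to 0.171, among them those without any single Nor library (0.0920 to 0.135), without Ver 1 (0.130) or without Ver 2 (0.116).

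bra-miR860-3p had 13, 6 and 7 reads in Ver 1 to 3, against 34, 17 and 11 reads in Nor 1 to 3. In RPM this was 16.7, 9.99 and 12.3 in Ver and 33.4, 23.1 and 14.8 in Nor, so that Ver 1 lay above Nor 3. The log2 fold change was -0.86 (SE 0.468) with an adjusted p of 0.132 by edgeR, above the threshold.

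Summed, the miR860 arms reached 44.9, 35.0 and 56.1 RPM in Ver, against 86.4, 82.8 and 70.1 RPM in Nor. Every Ver library was below every Nor library. The means of 45.3 ± 10.6 RPM in Ver and 79.8 ± 8.55 RPM in Nor gave a log2 fold change of -0.78 (SE 0.234) and an adjusted p of 0.0148 by edgeR. The call was lost without Nor 2 (adjusted p 0.0851), with DESeq2 size factors (0.0810) and in the DESeq2 Wald test (0.270).

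The 5p arm made up 62.9%, 71.4% and 78.1% of the miR860 reads in Ver 1 to 3, against 61.4%, 72.1% and 78.8% in Nor 1 to 3. The shares overlapped, with means of 70.8 ± 7.65% in Ver and 70.8 ± 8.82% in Nor. The two-sided exact permutation p was 1.0, where 3 against 3 libraries cannot go below 0.1. In the precursor of 115 nt the arms lay at bases 17 to 37 and 80 to 100, with 19 and 20 of their bases paired in the listed fold.

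**Figure D5:**
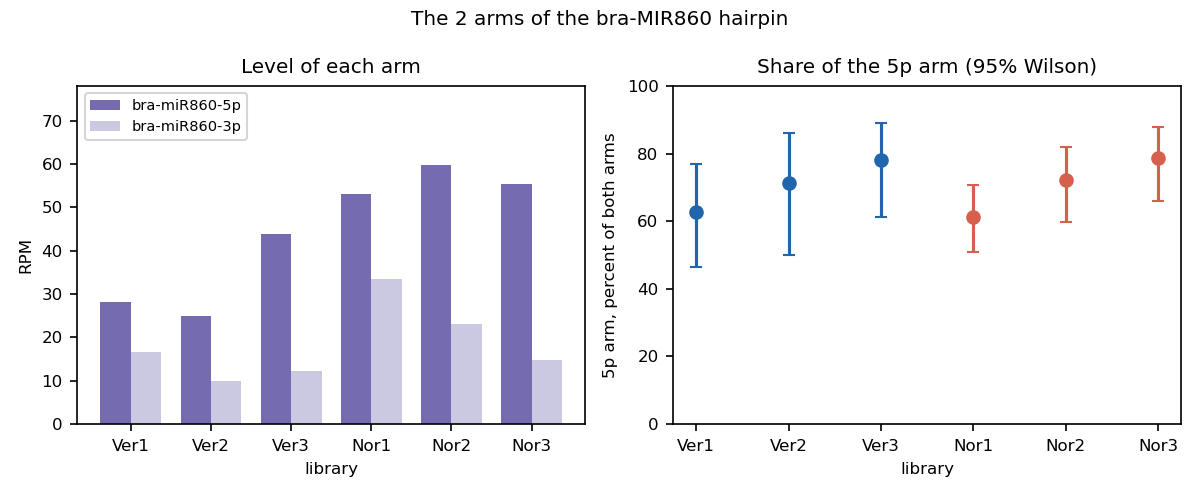
Level of each miR860 arm in RPM (left) and share of the 5p arm among the reads of both arms with 95% Wilson intervals (right), for the Ver and Nor libraries. The 5p arm was the more abundant in all 6 libraries, and its share ran between 61.4% and 78.8%.

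Over all 18 members the summed level was 3677, 3487 and 3687 RPM in Ver 1 to 3, against 3194, 3532 and 3221 RPM in Nor 1 to 3. The groups overlapped, since Ver 2 lay below Nor 2. The means were 3617 ± 112 RPM in Ver and 3316 ± 188 RPM in Nor, a log2 ratio of 0.13. Without cas-miR858 the other 17 members summed to 587 ± 17.1 RPM in Ver and 1022 ± 91.9 RPM in Nor, a log2 ratio of -0.80. cas-MIR472-p3_1ss14GT alone (275 RPM in Ver and 719 RPM in Nor) differed by a like amount. Without the 4 most abundant members (cas-miR858, cas-MIR472-p3_1ss14GT, ath-miR845a and bra-miR860-5p), the other 14 summed to 199 ± 32.1 RPM in Ver and 136 ± 33.6 RPM in Nor, and the groups overlapped.

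By the kind of name, the 8 members with a miRBase mature name summed to 3212 ± 167 RPM in Ver and 2515 ± 90.9 RPM in Nor. The 10 members on arms that miRBase does not hold summed to 405 ± 81.9 RPM in Ver and 800 ± 102 RPM in Nor, most of it cas-MIR472-p3_1ss14GT. By length, the 10 members of 21 nt summed to 3282 ± 155 RPM in Ver and 2524 ± 96.5 RPM in Nor. Of the 188 sequences of 21 nt tested in the whole table, 65 were higher and 57 lower in Ver. The 3 members with a prefix of other plants summed to 42.5 ± 6.53 RPM in Ver and 56.1 ± 20.8 RPM in Nor, within the spread of the libraries.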

How the data were processed

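The TruSeq small RNA libraries were read on an Illumina HiSeq. Per the methods of the study, adapters, low-complexity reads and common RNA families were removed, and unique sequences of 18 to 25 nt were searched by BLAST against the precursors of miRBase 21.0. The file header adds a mapping to a genome whose build is not given in the sources used here. The deposited raw values are expected counts (estimated counts), since the authors divided reads over rows by a rule not stated. Among the members' values, 59.1% were whole as listed and 93.5% after the rows of a sequence were summed. The deposited normalized values are a signal, the raw value times 1 factor per library, and served as an alternative scaling. The precursor folding energy is a score that the authors listed. No value column belonged to another sample.

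Rows were summed per mature sequence, rounded and fitted with edgeR 4.0.16 in R 4.3.3 (TMM, the default low-count filter, group as the only term), with adjustment over 406 sequences or 189 families and predicted sequences. TMM factors were 0.951 to 1.052, and the biological coefficient of variation was 0.146 for sequences and 0.129 for families. SE was derived from the log2 fold change and F. The fit was tested on simulated counts. Named were called members, the 10 most abundant and families with at least 30 reads. The thresholds of the study (a log2 limit with an unadjusted p) and other scalings, filters and replicates were alternatives. Members and lists were chosen with earlier results of these data known. Replicates differed by more than sampling noise (chi-square per degree of freedom 3.00 to 11.7). The totals cover listed miRNA reads, and the sequencing depth was not used here. Intervals cover counting error only, because without molecular identifiers PCR copies cannot be told from separate molecules.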

Additional observations from a re-analysis of the deposited data

How the results depend on the processing

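The members called numbered 4, and 3 with DESeq2 1.42.0 size factors, the factors of the authors, the DESeq2 Wald test or the replicate number as a block. They numbered 3 to 4 when a library was left out. At a log2 fold change beyond 1 either way with an unadjusted p of at most 0.05, 2 members passed, against 43.3% of all sequences, and 1 family, against 42.9%. The families called numbered 3, and 2 with DESeq2 size factors or with the Wald test, and 2 to 3 when a library was left out. They also numbered 2 without names that carry substitutions. That fall was fixed in advance, since miR472 has no sequence left in that setting. Per the methods of the study, seeds germinated in dishes, each a biological repeat, and were then divided, so equal replicate numbers may share a dish. The labels do not say so, and the replicate numbers were not taken to pair the samples. Correlations for equal numbers (0.13, -0.06 and 0.03) cannot settle this with 3 libraries per group. With the block, 3 families and 205 sequences were called, against 248 sequences without it, and bra-miR860-5p was uncalled (adjusted p 0.0892 by edgeR). Leaving out a library left 217 to 250 sequences called.

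cas-miR858 (log2 fold change 0.38 to 0.54) and cas-MIR472-p3_1ss14GT (-1.43 to -1.17) kept their calls in all alternatives fitted, though cas-miR858 did not reach a log2 fold change of 1. aly-MIR858-p5_1ss9CT was also called wherever it was fitted, but it entered each fit only through Ver. It was not fitted where at least 10 counts were required in every library, so these calls are no separate support. ath-miR858a_1ss9TA was called without a filter on low counts (adjusted p by edgeR 0.0320). It was listed at 0 in Nor and had 63 of its 75 reads in Ver 3, so this call rests on 1 library. The miR845 sum reversed to 0.0048 with DESeq2 size factors and to 0.0029 with the Wald test, both uncalled. The summed level of members had a log2 ratio of 0.13, which was 0.23 with DESeq2 size factors, 0.26 with the factors of the authors, -0.80 without cas-miR858 and 0.0993 to 0.174 when a library was left out. The cause of these shifts was not tested, other than that of leaving out cas-miR858. Members with under 30 reads in sum did not pass the filter on low counts, and the cause of their low reads was not tested.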
